A study of Mus musculus with 42 samples.

Results

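The regions described here are stretches of the mouse genome where RNA polymerase II (Pol II) was found far from any protein-coding gene and where the same chromatin carried H3K27ac, the acetylation of lysine 27 on histone H3. The 67984 Pol II regions obtained by merging those of the 9 wild-type (WT) libraries on overlap were filtered by 3 conditions: a region in all 3 WT libraries of at least 1 time, a distance over 10 kb from every protein-coding gene body of GENCODE vM21 (mm10), and overlap with an H3K27ac region found in at least 2 of 3 WT libraries of that same time. This left 4515 distal Pol II regions, of 30999 regions that were found in all 3 libraries of a WT time. Because WT Pol II and H3K27ac chose these regions, WT values are given as a description with no test, and LPS changes were tested in KO libraries, which the choice did not use. KO was compared with WT at a time only over regions that met the conditions at another time, and these comparisons still include WT libraries. At the distance limit, chr9:106385735-106387030 lay 10010 bases from Dusp7 and was kept, and chr8:26961395-26967332 lay 9992 bases from Zfp703 and was left out.

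The cells were bone marrow-derived macrophages (BMDMs) of male C57Bl6/J mice aged 6 to 12 weeks, cultured for 7 days with medium conditioned by L929 cells. They were WT or deficient for Nur77, the nuclear receptor encoded by Nr4a1 (KO), and were left untreated (0 h) or given 100 ng/ml of LPS, a bacterial cell wall component, for 1 or 18 h. The KO label reads "cre" alone, and the study's methods describe a whole-body deletion made by crossing floxed Nr4a1 mice with CMV-Cre mice, with the Cre bred out afterwards and WT littermates as controls. Pol II and H3K27ac ChIP-seq were each done on 3 libraries per genotype and time, with 1 input library for each of the 6 groups. The study's methods call the ChIP-seq libraries biological replicates and do not say whether they came from separate animals, so the p-values measure the spread between these libraries, which may be technical.

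Enhancers are DNA elements that raise transcription of a gene from a distance. Active enhancers carry H3K27ac and are themselves bound by Pol II, which makes short, mostly unstable enhancer RNAs there. In macrophages, lineage factors such as PU.1 and C/EBP open the enhancers used at rest, and LPS, sensed by Toll-like receptor 4, brings NF-kB, AP-1 and interferon regulatory factors to these and to further sites. Nur77 binds the NBRE element as a monomer.

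Library quality was checked before these regions were compared. Depth, in M tags, was 21.7 to 36.1 in Pol II, 13.5 to 55.4 in H3K27ac and 25.6 to 45.3 in input libraries. Values are tags per region, normalized to 10 M tags per library, and a value of 0 means that no region was called there in that library, not that no reads were present. All 6 macrophage markers examined (Csf1r, Spi1, Adgre1, Itgam, Cd68, Lyz2) had Pol II in every group. Among T and B cell genes, Cd3d (23.1 to 92.2 tags) and Cd79a (12.6 to 96.6 tags) had Pol II in all 6 groups, whereas Cd3e and Pax5 were at 0 in every library, and their part in the results was not tested. Nr4a1 itself carried 171 to 191 tags of Pol II in WT and 58.9 to 77.5 in KO at 0 h, 23 to 30.4 and 33.5 to 37.4 at 1 h, and 0 to 7.46 and 0 at 18 h, so the gene body was not emptied of Pol II in KO.

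Several H3K27ac libraries stood apart from their labels. Over the 3319 distal regions found in all 18 H3K27ac libraries, KO replicate 1 at 1 h correlated at 0.977 to 0.979 with the WT libraries of that time but at 0.898 to 0.905 with KO replicates 2 and 3, which correlated at 0.988 with each other and at 0.876 to 0.892 with WT. At 18 h the split ran the other way: KO replicates 2 and 3 correlated at 0.973 to 0.977 with WT and at 0.991 with each other, and KO replicate 1 at 0.908 to 0.912 with them and at 0.899 to 0.903 with WT. These correlations are across regions within this experiment and carry no test. Counts of called regions for KO H3K27ac over the whole set are therefore given with and without these libraries. Counts for gene lists and for regions without input overlap, and other KO H3K27ac values, include them. The Pol II libraries showed no such split: the KO libraries of a time correlated at 0.990 to 0.993 with each other and at 0.957 to 0.967 with WT over 1036 regions.

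The name enhancer was also checked against the data, and parts of the set go against it. H3K27ac was required by the choice and is no check, and its median was 38.8 tags per kb. The median Pol II density was 8.37 tags per kb, against 7.81 in Pol II regions inside gene bodies. Of the 4515 regions, 4112 (91.1%) overlapped a region called in at least 1 input library, against 80.9% of all reproducible WT Pol II regions, and the median input density was 4.51 tags per kb against 1.42 in gene bodies. At the times when the conditions were met, input density reached or passed WT Pol II density in 316 of 3486 regions at 0 h, 368 of 1821 at 1 h and 609 of 2764 at 18 h. The part of input signal in the results was not tested, and counts without the regions that overlap input are given with each comparison. In addition, 1043 regions (23.1%) overlapped an annotated long noncoding RNA. Of the others, 12 overlapped a microRNA gene, and of those then left 115 overlapped a pseudogene, while 3317 (73.5%) of all regions overlapped no annotated gene. They are called distal Pol II regions below.

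The sequences below show stretches of 9 regions that head the lists of changes described later. Each is the 160-base window of the region (mm10 from RefSeq, plus strand, 5′ to 3′) with the most matches to 6 short motifs, and the capitals mark the matches: AP-1 TGANTCA, NBRE AAAGGTCA, PU.1 GAGGAAGT, C/EBP TTGCGCAA, NF-kB GGGANTTTC and IRF GAAANNGAA, on either strand. A match describes letters and shows neither binding nor a cause. 3 regions that gained Pol II in KO with LPS come first, near Fos, near the gene A730009L09Rik on chromosome 16 and near Rasgrf1.
Fos-side region, chr12:85510620-85510779: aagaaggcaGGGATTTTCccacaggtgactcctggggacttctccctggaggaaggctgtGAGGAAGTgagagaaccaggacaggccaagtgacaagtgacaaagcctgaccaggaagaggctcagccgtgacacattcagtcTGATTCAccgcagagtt
A730009L09Rik-side region, chr16:84603072-84603231: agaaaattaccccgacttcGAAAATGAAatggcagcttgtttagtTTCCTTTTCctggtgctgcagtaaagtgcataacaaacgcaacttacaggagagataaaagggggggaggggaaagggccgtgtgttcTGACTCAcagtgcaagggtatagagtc
Rasgrf1-side region, chr9:89869602-89869761: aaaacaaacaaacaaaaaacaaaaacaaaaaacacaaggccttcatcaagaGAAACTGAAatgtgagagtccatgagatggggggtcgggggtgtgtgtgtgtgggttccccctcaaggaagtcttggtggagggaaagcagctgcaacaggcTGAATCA

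The next 4 belong to regions that lost Pol II in KO with LPS, at 1 h (Lrrc28, Zfp395) or at 18 h (Ado, Rasa1). The Rasa1-side window holds the only NBRE match among these 4 windows, beside a PU.1 match, and the Zfp395-side window contains a simple repeat.
Lrrc28-side region, chr7:67458884-67459043: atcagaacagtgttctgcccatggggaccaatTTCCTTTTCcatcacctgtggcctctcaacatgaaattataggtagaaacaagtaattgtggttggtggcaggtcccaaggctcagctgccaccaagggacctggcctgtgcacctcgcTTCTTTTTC
Zfp395-side region, chr14:65347754-65347913: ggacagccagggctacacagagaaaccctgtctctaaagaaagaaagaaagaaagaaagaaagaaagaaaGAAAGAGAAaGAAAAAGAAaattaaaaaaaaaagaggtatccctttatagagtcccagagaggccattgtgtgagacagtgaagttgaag
Ado-side region, chr10:67701587-67701746: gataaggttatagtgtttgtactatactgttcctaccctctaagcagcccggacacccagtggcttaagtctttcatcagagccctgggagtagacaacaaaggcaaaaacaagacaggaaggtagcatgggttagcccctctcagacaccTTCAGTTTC
Rasa1-side region, chr13:85505272-85505431: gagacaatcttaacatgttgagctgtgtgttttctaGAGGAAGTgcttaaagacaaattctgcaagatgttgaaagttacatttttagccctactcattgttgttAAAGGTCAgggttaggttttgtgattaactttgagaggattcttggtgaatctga

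The last pair comes from the regions with the largest deficit of Pol II in KO against WT, near BC107364 and near the olfactory receptor gene Olfr693.
BC107364-side region, chr3:96489214-96489373: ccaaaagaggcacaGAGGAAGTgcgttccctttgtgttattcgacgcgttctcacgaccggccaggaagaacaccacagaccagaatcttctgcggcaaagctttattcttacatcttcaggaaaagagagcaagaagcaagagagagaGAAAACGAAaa
Olfr693-side region, chr7:106620562-106620721: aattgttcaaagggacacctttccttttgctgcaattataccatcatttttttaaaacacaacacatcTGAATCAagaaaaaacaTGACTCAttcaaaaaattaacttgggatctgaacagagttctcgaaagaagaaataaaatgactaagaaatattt

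Over the whole set, these motifs were counted in the central 500 bases of the 4509 regions whose sequence could be read. AP-1 letters were present in 24.1% of the distal regions and in 16.6% of all merged WT Pol II regions, PU.1 letters in 9.49% and 5.02%, IRF letters in 22.5% and 17.3%, NF-kB letters in 2.88% and 1.78%, NBRE letters in 3.19% and 2.59%, and C/EBP letters in 0.177% and 0.0648%. The share with PU.1 letters was 13.5% in regions that met the conditions at 0 h only and 4.95% in those that met them at 1 h only. For NF-kB letters the order was the reverse, 2.42% and 4.33%.

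The distal regions were short, with a median width of 2016 bases (quartiles 1293 and 3336), and together covered 14.0 Mb. However, 158 were wider than 10 kb and the widest spanned 176260 bases. The median distance to the nearest protein-coding gene was 37.3 kb and 959 regions lay over 100 kb away. By that distance 2215 genes were the nearest to at least 1 region, led by Cited2 with 30 regions, Klf6 and Zeb2 with 21 each, Myc with 19 and Jarid2 with 18. A nearest gene is a landmark only, since these data do not show which gene a region acts on.

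In WT, 3486 regions met the conditions at 0 h, 1821 at 1 h and 2764 at 18 h. Below, present at a time means that the conditions were met then, and a region not present could still hold signal. Regions present at 0 h only made up 1200 (26.6%), followed by 1119 present at all 3 times and 939 present at 0 and 18 h but not at 1 h. Regions present only after LPS were fewer, with 323 at 1 h only, 555 at 18 h only and 151 at 1 and 18 h. Their median WT values at 0 h were 0 for Pol II and 15.0, 18.4 and 37.0 tags for H3K27ac, in that order. The remaining 228 were present at 0 and 1 h. Regions present at all times were the widest, with a median of 3958 bases against 1298 for the 0 h only group.

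The same course over time was seen in the number of regions found in each library. Pol II was found in 3632 to 3689 of the 4515 regions in WT at 0 h, 2023 to 2179 at 1 h and 2982 to 3061 at 18 h. In KO libraries, which had no part in the choice, the numbers were 3389 to 3554, 2386 to 2530 and 2767 to 2863, so the 1 h dip was present in both genotypes. Since WT libraries chose the regions, no difference between genotypes is read from these numbers. All Pol II regions called per library showed the dip too, with 54088 to 57861 at 0 h, 38150 to 40007 at 1 h and 45498 to 49132 at 18 h over both genotypes. H3K27ac was found in 4002 to 4321 regions in all 18 libraries and had no such dip. Of the regions that met the conditions in WT, 88.9% at 0 h, 96.4% at 1 h and 86.8% at 18 h had Pol II in all 3 KO libraries of that time, against 88.4%, 93.9% and 88.0% of all reproducible WT Pol II regions.

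These regions held a small share of all Pol II tags. The mean share was 3.41% ± 0.23 (SD, n = 3) in WT and 3.45% ± 0.137 in KO at 0 h. It was 3.05% ± 0.0969 in WT and 3.48% ± 0.0574 in KO at 1 h, and 3.22% ± 0.0179 in WT and 3.08% ± 0.0482 in KO at 18 h. For H3K27ac the shares were 9.47% ± 0.236 and 9.12% ± 0.0747 at 0 h, then 8.29% ± 0.134 and 8.57% ± 0.309 after 1 h of LPS, then 8.91% ± 0.19 and 7.69% ± 0.556 after 18 h, in WT and KO in that order. These shares are a description, since WT chose the regions. In bulk samples, fewer cells with an active region and less Pol II per cell cannot be told apart.

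**Figure D1:**
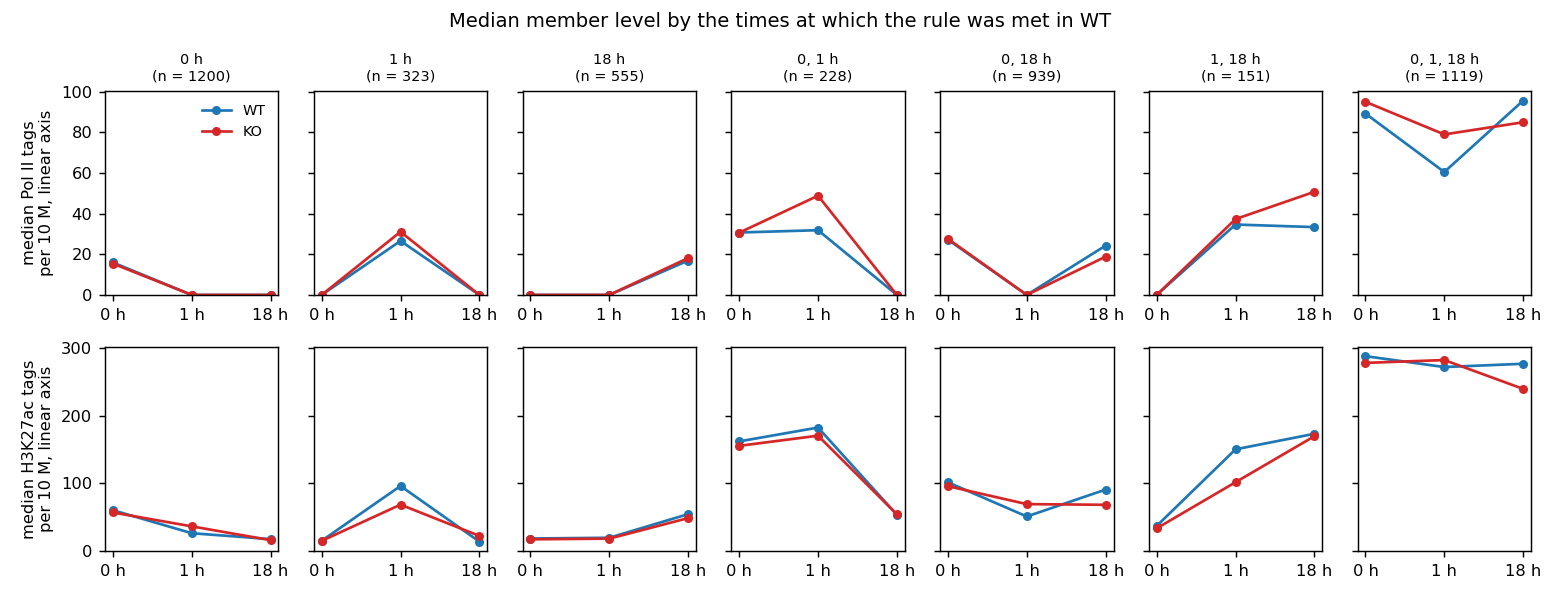
Median Pol II (top) and H3K27ac (bottom) tags per 10 M tags are plotted against LPS time for WT (blue) and KO (red) in the 7 groups of regions defined by the times at which the conditions were met in WT. The KO Pol II medians, which did not define the groups, went from 15.4 tags at 0 h to 0 at 1 h in the 0 h only group and from 0 to 31.1 in the 1 h only group, as WT did, whereas in the group present at 0 and 1 h KO went from 30.6 to 48.8 and WT from 30.7 to 31.9.

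To ask how these regions respond to LPS in cells without Nur77, KO libraries at 1 and 18 h were each compared with the same KO libraries at 0 h, which both comparisons share. A region counted as changed with an adjusted p under 0.05 and a change over 1 on the log2(tags + 10) scale, in limma fitted on all 82788 Pol II regions. The added 10 tags shrink changes of weak regions, and a region listed at 0 enters the scale as 10 tags. Reads that were not called as a region count as 0, so a change can be overstated where a weak region was called at only 1 of the times. In the 0 h only group, for example, the KO median went from 15.4 tags at 0 h to 0 at 1 h. At 1 h, Pol II fell in 1799 and rose in 731 of the 3997 regions tested, where 29.7% of all tested regions fell and 11.3% rose. The median change was −0.86 against −0.51 over all regions. With 30 tags added in place of 10, 833 fell and 481 rose at 1 h. At 18 h, 1480 fell and 817 rose of 4101 tested, with a background of 18.5% lower and 13.9% higher, and the median change was −0.56 against −0.19. Both directions were more frequent in the whole distal set than over all regions, at both times, but this was not particular to it. Of 209 tested distal regions without H3K27ac, 16.7% rose and 38.3% fell at 1 h, and of 247 tested at 18 h, 27.9% rose and 28.7% fell. In Pol II regions inside gene bodies 12.2% rose and 36.6% fell at 1 h.

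Scaling bears on the 1 h split. When each library was centred on its median, which moved the median change of all regions at 1 h from −0.51 to −0.01, 1075 distal regions fell and 928 rose, and at 18 h 1442 fell and 841 rose. Among the 403 regions that overlap no input region the counts were 157 lower and 23 higher of 309 tested at 1 h, and 124 and 70 of 363 at 18 h, so that the share of gains at 1 h (7.44%) lay below the background there. The losses at 1 h came mostly from regions present in WT at 0 h but not at 1 h. In KO, 728 of the 1112 tested 0 h only regions fell, as did 699 of the 916 tested regions present at 0 and 18 h. Gains were most frequent in the 1 h only group, with 285 of 317 tested higher, and in the group present at 1 and 18 h, with 119 of 145. Over all tested regions 11.3% rose. No region fell in either group, but their median KO Pol II at 0 h was 0 tags, from which no fall can be called. A further 230 of 1116 tested regions present at all times rose, where 321 fell, as did 71 of 228 regions present at 0 and 1 h, where 27 fell. At 18 h, 348 of 507 tested 18 h only regions rose, where 13.9% of all tested regions rose.

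**Figure D2:**
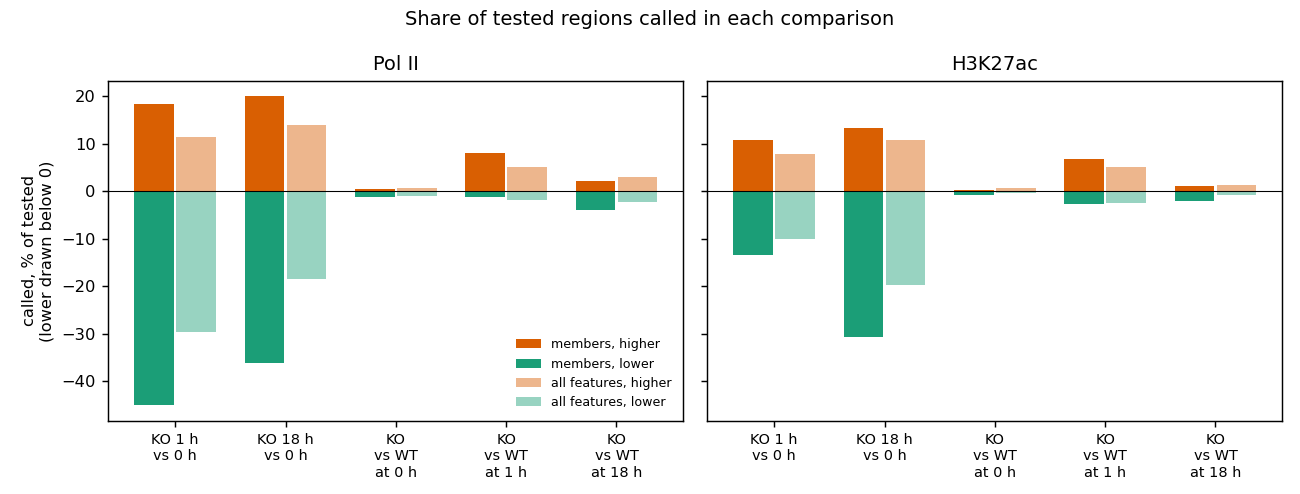
The share of tested regions called higher (orange, above 0) and lower (green, below 0) is drawn for the distal regions ("members", full colour) and for all Pol II regions ("all features", pale) in 5 comparisons, for Pol II (left) and H3K27ac (right). The LPS comparisons gave the tallest bars, with Pol II lower in 45.0% of the distal regions in KO at 1 h against 29.7% of all regions, and the comparisons of KO with WT gave bars under 8%.

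The strongest gain of Pol II at 1 h in KO was at chr16:84602232-84612462, which lies 78.3 kb from A730009L09Rik and 102 kb from Mir155, the gene of an LPS-induced microRNA. No region was called there in any KO library at 0 h, and KO libraries held 1546, 1416 and 1384 tags at 1 h and 673, 696 and 732.5 at 18 h. WT libraries held 0, 8.15 and 0 tags at 0 h, then 1252, 1222 and 1247 after 1 h of LPS, then 263, 262 and 252 after 18 h. The KO groups did not overlap, and the limma adjusted p was 6.9e-16 at 1 h and 6.7e-15 at 18 h. Of the 6 distal regions within 300 kb of Mir155, a locus singled out after this region was seen, 5 rose in KO at 1 h, where 11.3% of all tested regions rose.

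Next was chr12:85508036-85529414, 30.8 kb downstream of Fos, a subunit of AP-1. It was listed at 0 in all KO libraries at 0 h, held 1336, 1377 and 1348 tags at 1 h, and still held 161, 166 and 157 at 18 h (limma adjusted p = 4.85e-16 and 6.74e-13). WT held 0, 6.4 and 0 tags, then 1173, 1115 and 1137, then 26.2, 38.6 and 35.5. The other leading gains were near Slc44a1, a choline transporter, and Pou1f1, a pituitary transcription factor. At chr4:53407274-53414537 near Slc44a1, KO went from 0 in all libraries to 904.8, 908.5 and 786.4 tags at 1 h, and only 1 library kept a region at 18 h, with 6.2 tags. At chr16:65446662-65461131, 59.4 kb upstream of Pou1f1, KO went from 17.1, 15.5 and 30.2 tags to 2229, 2151 and 2033, a change of 6.15 ± 0.17 (log2, SE). It had fallen to 59.2 to 69.2 tags by 18 h, still 1.32 above 0 h. These regions thus held their highest Pol II at 1 h.

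The regions with the largest losses at 1 h were listed at 0 or at no more than 21.7 tags, and 0 means that no region was called. At chr14:65342212-65348274, 10.1 kb upstream of Zfp395, KO held 748.5, 737 and 689 tags at 0 h, was listed at 0 in all libraries at 1 h, and returned to 149, 149 and 122 at 18 h. Near Lrrc28, chr7:67457683-67466417 held 557, 559 and 532 tags, then 0 in all libraries, then 25.03, 32.6 and 17.2. The region chr14:53751059-53771317 between T cell receptor alpha V segments, 464 kb from Dad1, fell from 744, 660 and 678 tags to 7.03, 21.7 and 0. Near Rasa1, which encodes a Ras GTPase-activating protein, chr13:85503859-85510265 fell from 657, 632 and 605 tags to 0, 10.4 and 0 and was listed at 0 in all libraries at 18 h. The 1 h changes of these 4 regions had limma adjusted p values from 3.6e-18 to 8.1e-11, and the corresponding WT libraries showed the same courses, with no more than 8.43 tags at 1 h in any of them.

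At 18 h, the leading gains after the Mir155-side region were near Rasgrf1, Acsl1 and Smim3. Rasgrf1 encodes an exchange factor for Ras, and chr9:89868546-89876176 upstream of it went in KO from 0 in all libraries to 156, 154.7 and 147 tags at 1 h and 543, 538 and 517 at 18 h. Acsl1 encodes an acyl-CoA synthetase that activates long-chain fatty acids, and chr8:46428808-46436603 upstream of it went from 0 in all libraries to 136, 128 and 158 tags and then 524, 448 and 559. At chr18:60438340-60445141 near Smim3, which overlaps the noncoding gene BC023105, Pol II was listed at 0 at 0 and 1 h and held 477, 508 and 545 tags at 18 h. Unlike the early gains, these 3 regions held their highest Pol II at 18 h.

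The leading losses at 18 h were near Rasa1, Ado, Il1rl1 and Cep78. At chr10:67701150-67706615 near Ado, KO held 618, 639 and 592 tags at 0 h, 535, 487 and 499 at 1 h and 0 in all libraries at 18 h, so the loss came after the 1 h time point. Il1rl1 encodes the receptor for interleukin 33, and chr1:40400190-40419400 upstream of it held 483.5, 453 and 457 tags, then 0, 14.5 and 0, then 0 in all libraries. Near Cep78, a centrosomal protein gene, chr19:16013105-16018173 fell from 637, 665 and 598 tags to 303, 303 and 310 and then to 0, 15.2 and 0, a change of −5.56 ± 0.24 at 18 h (limma adjusted p = 6.3e-12).

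**Figure D3:**
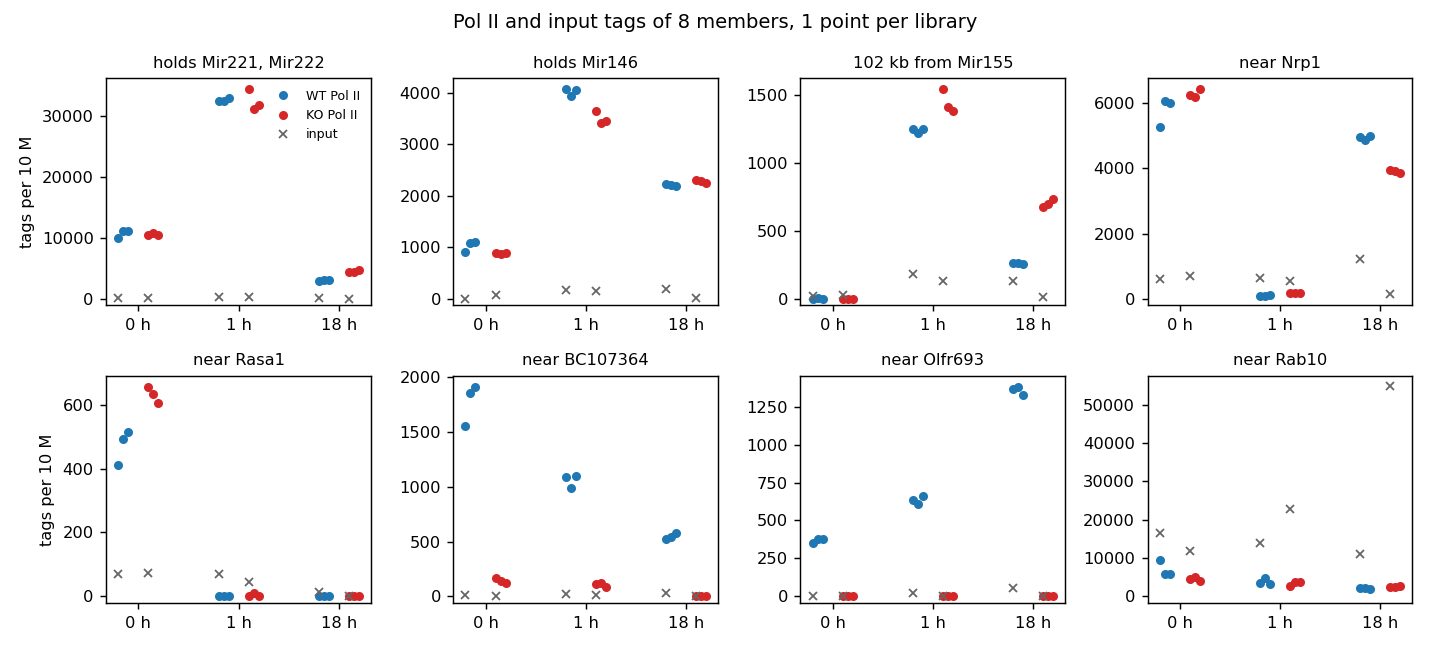
Pol II tags per 10 M tags are plotted for 8 distal regions, with 1 point per library, WT in blue and KO in red, and the input library of each group as a grey cross. The Mir221 and Mir222 region peaked at 1 h in both genotypes, the BC107364 and Olfr693 regions held at most 163 tags in KO, and the Rab10 region had input (10976 to 54832 tags) above Pol II in all 6 groups.

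Genes were then grouped by function, in lists chosen with earlier results of these data known, and the regions nearest to them were counted. The NF-kB and cytokine list had 33 regions near 11 of its 27 genes, and Pol II rose in 26 and fell in 4 of them in KO at 1 h, where 11.3% of all tested regions rose and 29.7% fell. Their median change was 2.14, against −0.51 over all regions tested. At 18 h, 8 rose and 6 fell of the 25 tested, with a background of 13.9% and 18.5%, and the median change was 0.45. Of the 11 regions around Tnfaip3, which encodes the NF-kB inhibitor A20, 9 rose at 1 h and none fell. The strongest of them, chr10:19059994-19070928, went from 217, 186 and 205 tags to 2229, 2223 and 2304 at 1 h and 656, 629 and 620 at 18 h, a change of 3.42 ± 0.08 at 1 h. At 18 h the Tnfaip3 group was split, with 4 higher and 3 lower, and chr10:18928352-18938410 on the downstream side fell from 591, 598 and 502 tags to 17.2, 28 and 20.9.

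All 4 regions upstream of Il12b, the shared subunit of interleukins 12 and 23, rose at 1 h in KO, and 3 of them were listed at 0 in every KO library at 0 and 18 h. The region 17.7 kb upstream of Il1a, chr2:129327720-129333701, was listed at 0 at 0 h, held 217, 209 and 190.5 tags at 1 h and was again at 0 at 18 h. The Il1b-side region, chr2:129336837-129340526, rose from 47.3, 57.1 and 43.7 tags to 239, 252 and 222 (2.06 ± 0.13). Ptgs2 encodes cyclooxygenase 2, and the region 52.3 kb downstream of it kept its gain, with 129, 136 and 126 tags at 1 h and 143, 165 and 154 at 18 h, from 0, 11.5 and 0 at 0 h. Of 9 regions near Nfkbiz, which encodes an atypical IkB protein, 6 rose and 3 fell at 1 h, and 1 rose and 1 fell at 18 h. The only region near Il6 was weak and was called lower, from 11.2, 12.1 and 12.5 tags to 0 in all libraries, where 0 does not mean that no reads were present.

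The early response and AP-1 list had 69 regions, and 15 rose and 24 fell of the 63 tested at 1 h, with a background of 11.3% higher and 29.7% lower and a median change of −0.39, against −0.51 over all regions. At 18 h, 13 rose and 22 fell of 61, where 13.9% of all tested regions rose and 18.5% fell. Klf6, a zinc finger factor gene, had 4 of its 21 regions higher and 4 lower at 18 h, but 9 higher and none lower at 1 h. At chr13:5782400-5792991, 68.5 kb upstream of Klf6, Pol II rose from 113.5, 94.3 and 97.1 tags to 2080, 1411 and 1986 (4.02 ± 0.11). By contrast, 4 of the 9 regions near Jun fell and 1 rose at 1 h, and 3 fell and 1 rose at 18 h. At chr4:95211372-95219357, 159 kb upstream of Jun, Pol II went from 295, 279 and 266 tags to 7.03, 0 and 7.11 at 1 h (−4.34 ± 0.16) and returned in part to 64.8, 68.6 and 59.8. Near Klf4, 6 of 9 fell and none rose at 1 h, and 4 fell and 2 rose at 18 h.

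The macrophage lineage list had 43 regions, of which 4 rose and 21 fell of 38 tested at 1 h, and 14 rose and 16 fell of 42 tested at 18 h. Over all tested regions 11.3% rose and 29.7% fell at 1 h, then 13.9% and 18.5% at 18 h, and in the whole distal set 45.0% fell at 1 h and 36.1% at 18 h. All 5 regions near Cebpb, a C/EBP factor gene, rose at 18 h and none was called at 1 h. At chr2:167737379-167756561 Pol II went from 354, 353 and 283 tags at 0 h to 655, 651 and 595 at 1 h and 1790, 1665 and 1748 at 18 h (2.37 ± 0.08). Near Runx1, 7 of 11 regions fell at each time. The lipid and iron list consisted of regions near Abca1, the cholesterol exporter, and Pparg, a lipid-sensing nuclear receptor, and 11 of these 15 fell at 1 h and 11 at 18 h, with none rising at either time, where 29.7% of all tested regions fell at 1 h and 18.5% at 18 h. At chr6:115341869-115346347, 14.6 kb upstream of Pparg, Pol II fell from 372, 347 and 335 tags to 8.01, 17 and 0 (−4.41 ± 0.24) and stood at 26.7 to 30.2 at 18 h. The interferon list had only 2 regions. The Ifnb1-side region rose from 0 in all KO libraries to 48.9, 54.5 and 62.6 tags at 1 h and kept 48.6 to 52.3 at 18 h. The Irf1-side region went from 0 in all KO libraries to 304, 196 and 10.8 tags at 1 h, and these libraries differed among themselves by more than the WT libraries, with 11.5, 0 and 0.

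**Figure D4:**
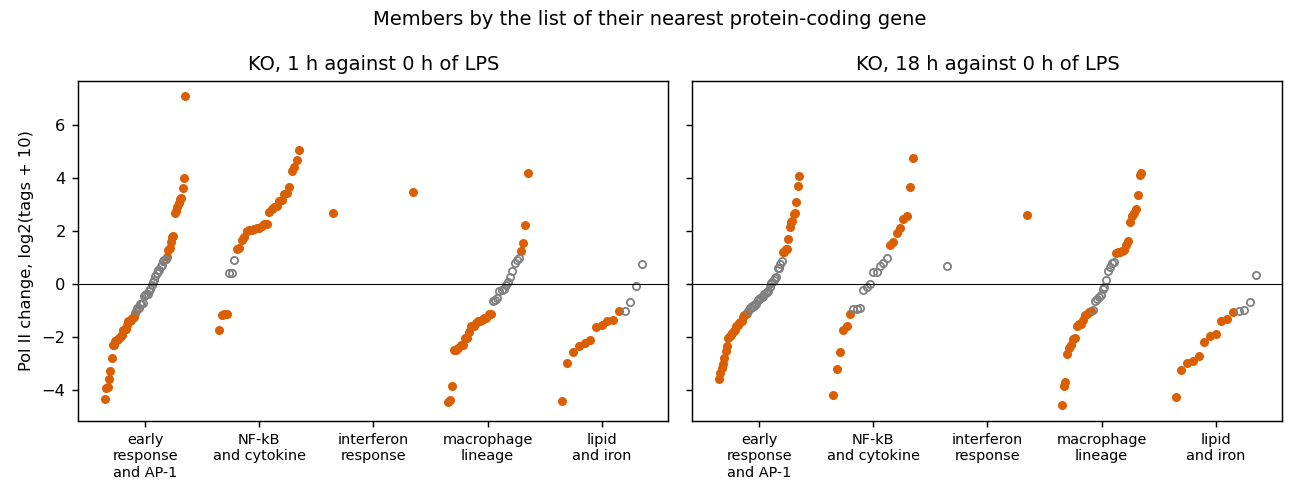
Each point is a distal region, placed by the list of its nearest protein-coding gene, with its Pol II change in KO at 1 h (left) or 18 h (right) against 0 h on the log2(tags + 10) scale, filled where it was called and open where it was not. Most of the 33 NF-kB and cytokine regions lie above 0 at 1 h, and 14 of the 15 lipid and iron regions lie below 0 at 1 h.

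Across regions, Pol II in a distal region and in the body of its nearest gene moved together to a moderate degree. Over 3298 regions whose nearest gene had Pol II, Spearman's rho of the KO changes at 1 h was 0.48, and at 18 h it was 0.39 over 3411. Regions sharing a gene and the same libraries are not independent, so no p is given. Of 633 regions that rose at 1 h, 502 (79.3%) had a nearest gene with a change above 0, against 45.0% of all 3298. At 18 h the shares were 67.5% of 707 and 41.6% of 3411. Beyond 100 kb, rho was 0.44 at 1 h and 0.23 at 18 h. Of the regions that rose there at 1 h, 133 of 162 (82.1%) had a nearest gene above 0, against 56.6% of all 666. At 18 h it was 49 of 95 (51.6%), against 39.0% of all 652, with a median gene change of 0.02.

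A group of 16 regions, singled out after their values were seen, held 27 microRNA genes. In KO, Pol II rose in 3 and fell in 3 of them at 1 h, and rose in 3 and fell in 5 at 18 h, with backgrounds of 11.3% higher and 29.7% lower, then 13.9% and 18.5%, and nothing is read from counts this small. Selected mature microRNAs of these regions are printed here from RefSeq (GRCm38), 5′ to 3′, with the seed, bases 2 to 8, in capitals. Those of the regions with the largest changes, Mir21c (−5.14 in KO at 1 h) and Mir3089 (−3.51), are not among them. The 221 and 222 products share 1 seed, as do 17 and 20a, and 19a and 19b.
mmu-miR-221-3p: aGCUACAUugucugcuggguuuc
mmu-miR-222-3p: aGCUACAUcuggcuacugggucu
mmu-miR-146a-5p: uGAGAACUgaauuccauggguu
mmu-miR-17-5p: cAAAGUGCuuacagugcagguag
mmu-miR-20a-5p: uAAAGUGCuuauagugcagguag
mmu-miR-19a-3p: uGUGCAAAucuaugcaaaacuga
mmu-miR-19b-3p: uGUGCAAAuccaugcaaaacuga
mmu-miR-29a-3p: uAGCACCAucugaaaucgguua

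The Mir221 and Mir222 region, chrX:19138560-19187022, was among the 8 distal regions with the highest Pol II. KO libraries went from 10421, 10716 and 10420 tags at 0 h to 34410, 31166 and 31722 at 1 h (1.62 ± 0.05), and then to 4284, 4349 and 4746 at 18 h (−1.24 ± 0.05), so a rise was followed by a fall below the starting level. The Mir146 region, chr11:43366551-43387239, rose and stayed up, with 890, 861 and 879 tags at 0 h, then 3643, 3418 and 3458 after 1 h of LPS (1.99 ± 0.06), then 2304, 2299 and 2258 at 18 h (1.37 ± 0.06). miR-146a is known to restrain Toll-like receptor signalling. The Mir17hg region, chr14:115039505-115055025, which holds the miR-17 to 92 cluster, changed little at 1 h, from 485, 502 and 515 tags to 679, 659 and 692, and fell to 63.4, 74.2 and 50.8 at 18 h (−2.82 ± 0.1). At chr6:31048092-31224351, the widest region, with Mir29a and Mir29b-1, Pol II rose at 18 h by 1.29 ± 0.05. The widest loss was at chr8:128147300-128286585, a stretch of 139286 bases with Mir21c, 72.0 kb upstream of Nrp1, where KO went from 6249, 6195 and 6448 tags to 167, 161 and 180 at 1 h (−5.14 ± 0.1) and recovered to 3948, 3920 and 3858 at 18 h. WT followed the same course there, with 5285, 6080 and 6012, then 90, 72.7 and 112, then 4977, 4880 and 5001 tags.

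One of the 8 distal regions with the highest Pol II, chr12:3109715-3110341, 137 kb from Rab10, had 10976 to 54832 tags in the input libraries and 2031 to 9436 in the Pol II libraries. It is 627 bases wide, and its Pol II values cannot be told apart from what the input held there.

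To ask whether Nur77 deficiency changes these regions at a given time, KO was compared with WT. Regions were counted at a time only if they met the conditions at another time, since the WT libraries of the tested time would otherwise have chosen them. At 0 h, Pol II was higher in 11 and lower in 31 of 2528 regions, with a background of 0.753% and 1.11%, and without replicate 3 the counts were 22 and 28. At 1 h it was higher in 172 and lower in 25 of 2166, with a background of 5.19% and 1.85%. At 18 h it was higher in 57 and lower in 100 of 2564, with a background of 2.91% and 2.35%. The median differences were 0.04, 0.38 and −0.14, against 0.02, 0.28 and −0.09 over all regions. Centring each library left 61 higher and 48 lower at 1 h, and 79 higher and 67 lower at 18 h, whereas quantile normalization gave 204 higher and 48 lower at 1 h, and 58 higher and 66 lower at 18 h. The direction of the surplus at 18 h and the size of that at 1 h therefore differed between scalings. Without the regions that overlap input the counts were 2 and 5, 10 and 1, and 3 and 8.

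The deepest deficits in KO lay in 2 loci. At chr7:106615450-106623511, 51.5 kb downstream of Olfr693, WT held 349, 381 and 377 tags of Pol II before LPS, 637, 608 and 662 after 1 h and 1364, 1382 and 1328 after 18 h, and all 9 KO libraries were listed at 0. H3K27ac was also listed at 0 in all 9 KO libraries and held 305 to 736.5 tags in WT. An adjacent distal region was lower in KO for both antibodies at all times as well. At chr3:96482131-96493343 near BC107364, which overlaps 3 noncoding genes, WT held 1555, 1857 and 1915 tags before LPS, 1094, 992 and 1095 after 1 h and 524, 544 and 574 after 18 h. KO held 163, 140 and 123, then 111, 118.5 and 86.4, then 0 in all libraries, and no KO library had an H3K27ac region there. The WT and KO ranges did not overlap at any time (limma adjusted p from 5.1e-15 to 9.6e-12 for Pol II). The choice of regions by WT signal favours such deficits.

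Regions higher in KO differed less: at 18 h the largest difference of a called region was 3.34, against −7.10 for the deepest deficit. At chr16:84640121-84646486, 67.7 kb from Mir155 and nearest to Mrpl39, both genotypes gained Pol II at 1 h, with 117, 118 and 127 tags in WT and 142, 137 and 127 in KO. At 18 h WT was back at 0 in all libraries and KO still held 82.2, 78.9 and 90.8 (limma adjusted p = 1.4e-12). The leading Mir155-side region named above had 1.40 ± 0.16 more in KO at 18 h, a call lost with a pseudocount of 1, and the Fos-side region 1.99 ± 0.15 more, and neither differed past the threshold at 1 h. At chr7:129524247-129532235 near Wdr11, KO held 85.2, 40.8 and 68.6 tags and WT 7.06, 10.9 and 22.2 at 0 h (1.68 ± 0.22), and 77.7, 96.6 and 81 against 12, 16.8 and 16.2 at 18 h. At chr3:97939569-97943655 near Sec22b, KO was higher at all 3 times, by 1.43, 1.87 and 1.79, and the 0 h call was lost with a pseudocount of 30 and without replicate 3. At 1 h, chr2:78292761-78298521 near Cwc22 and chr18:46473768-46478099 near Fem1c were listed at 0 in all WT libraries and held 57.1 to 72 and 47 to 53.7 tags in KO, and neither fell past the threshold in KO at 1 h. Near Slamf7, chr1:171664341-171666806 held 121, 76.5 and 135 tags in KO and 0, 5.98 and 0 in WT at 18 h, but this depended on how regions were merged: with regions merged over all 18 libraries the difference was −0.04.

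Over the functional lists, no region of 94 tested at 0 h was called in limma for Pol II, 6 were higher and 1 lower of 96 at 1 h, and 2 were higher and 2 lower of 99 at 18 h. With 0.753% to 5.19% of all tested regions higher and 1.11% to 2.35% lower, such counts are near the background and say nothing particular about the lists.

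H3K27ac moved less than Pol II at 1 h. In KO it rose in 470 and fell in 590 of 4406 regions at 1 h, with a background of 7.87% higher and 10% lower, and rose in 589 and fell in 1364 of 4453 at 18 h, with a background of 10.7% and 19.8%. Without KO replicates 2 and 3 at 1 h and replicate 1 at 18 h, which leaves 1 KO library at 1 h that is assumed to vary like the other groups, 457 rose and 1010 fell at 1 h, and 626 rose and 1411 fell at 18 h. Without replicate 1 of both times, 461 rose and 518 fell at 1 h. Among regions that overlap no input region, 13 rose and 83 fell of 373 at 1 h, and 54 rose and 134 fell of 394 at 18 h. With centred libraries the counts were 546 and 431 at 1 h, so that gains outnumbered losses, and 753 and 1045 at 18 h. Of the regions where Pol II rose at 1 h, 53.6% also had higher H3K27ac. Of those where Pol II fell at 1 h, 27.2% had lower H3K27ac at 1 h, and of those where Pol II fell at 18 h, 72.4% had lower H3K27ac at 18 h. These shares include the KO libraries that stood apart and were not computed without them. In the Rasa1-side region, KO H3K27ac was 1456, 1551 and 1452 tags before LPS, 250, 182 and 177 after 1 h and 0, 18.1 and 17.4 after 18 h, and Pol II was at 0 to 10.4 at 1 h. Near Il1rl1, KO H3K27ac held 441 to 454.5 tags at 1 h after 1253 to 1283 at 0 h, and 54.3 to 126 at 18 h.

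The largest H3K27ac gains in KO were near Tnfaip3, Atp2b1 and Marcks at 1 h and near Slco3a1, Pde7b and Acsl1 at 18 h. At chr10:19075709-19082920, 60.1 kb upstream of Tnfaip3, H3K27ac went from 7.86, 7.4 and 0 tags to 855, 873 and 707 (5.81 ± 0.25). At chr10:98499188-98505369, 409 kb from the calcium pump gene Atp2b1, it went from 0 in all libraries to 520, 432 and 378 tags. At chr7:74692241-74699690, upstream of Slco3a1, it was 0 in all libraries at 0 h, 79.6, 38.2 and 47.8 tags at 1 h and 555, 986 and 928 at 18 h. Among NF-kB and cytokine regions, H3K27ac rose in 18 of 33 at 1 h and fell in none, where 7.87% of all tested regions rose and 10% fell. At 18 h it rose in 10 and fell in 6 of 32, with a background of 10.7% higher and 19.8% lower. The counts at both times include the KO libraries that stood apart. The largest losses included chr19:24983074-24986037 near Dock8, from 503, 380 and 405 tags to 0, 0 and 11 at 1 h and 0 in all libraries at 18 h.

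Comparing KO with WT, H3K27ac was higher in 7 and lower in 23 of 3083 regions at 0 h (background 0.569% and 0.391%), higher in 274 and lower in 110 of 4060 at 1 h (5.06% and 2.38%), and higher in 39 and lower in 76 of 3647 at 18 h (1.32% and 0.854%). H3K27ac depth differed between the genotypes, with 13.5 to 31.1 M tags in WT and 23.6 to 55.4 in KO, and its part in these counts was not tested. Among regions that overlap no input region, the main fit gave 1 higher and 5 lower, 35 and 11, and 0 and 7, at 0, 1 and 18 h. A fit with all input regions left out gave 0 higher and 8 lower at 18 h. The 1 h result turned on the libraries that stood apart. Without KO replicate 1 at 1 and 18 h, 830 regions were called at 1 h, and without KO replicates 2 and 3 at 1 h and replicate 1 at 18 h, with a single KO library left at 1 h and the spread taken from the other groups, 56 were called, 15 higher and 41 lower. At 18 h the latter fit gave 32 higher and 58 lower. Centring gave 171 higher and 153 lower at 1 h, and 61 higher and 47 lower at 18 h. With a common floor on region density in all libraries, 7 were higher and 38 lower at 0 h, and 32 higher and 138 lower at 18 h. At 0 h, leaving out replicate 1 gave 19 higher and 25 lower, so the split between directions was not stable at either time. The Zfp395-side region shows the split: KO replicate 1 held 147 tags at 1 h, next to 147 to 195 in WT, and replicates 2 and 3 held 586 and 569. At 0 h, the highest KO values against WT were at a pair of regions near Plekho1, where H3K27ac was 824, 821 and 826 tags in KO and 243, 340 and 315 in WT at chr3:95971387-95974375 (1.44 ± 0.14). Near Acsl1, H3K27ac at chr8:46428808-46436603 was lower in KO at 0 h, with 51.7, 47.6 and 49.1 tags against 250, 239 and 249 (−2.10 ± 0.26), and Pol II was listed at 0 in KO against 12.7, 33.3 and 22.7 tags in WT.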

How the data were processed

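Reads had been trimmed (Skewer), mapped to mm10 (HISAT2 2.1.0) and freed of duplicates by the authors, who called regions per library with HOMER (histone style, no input control). Per the file headers, windows were 500 bp, the Poisson p-value threshold 1e-03 and the minimum distance 1000 bp. The deposited signal is the tag count of a region normalized to 10 M tags per library.

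WT Pol II regions were merged on overlap, KO regions that overlap none of them were added, and tags were shared out by overlap. Values were tested as log2(tags + 10) with limma 3.58.1 (trend, 6 group means, 18 libraries per antibody, Benjamini-Hochberg over all tested regions), in R 4.3.3. Testing required values above 0 in 2 or more of the 3 libraries of either group. Calls needed an adjusted p under 0.05 and a change over 1. The procedure was tested on simulated data. Whole tags could not be recovered, so no counting intervals are given. Alternatives covered the pseudocount, filter, scaling, density floor, input regions, region bounds, replicate block and left-out libraries.

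Named regions were, per comparison and antibody, the 4 largest rises and falls (2 for KO against WT) among called regions with no overlap between groups, the 8 with the highest Pol II, the 4 highest of each single WT time, those whose nearest gene is in a list of 90 genes or that overlap a listed noncoding gene, and those at the distance limit. Not every region so named is described, and some list genes are not reported here. Members and lists were chosen with earlier results of these data known. Sequences are from RefSeq (mm10).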

Additional observations from a re-analysis of the deposited data

Results flagged for a closer look

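In some regions all KO libraries after LPS lay on one side of the KO libraries at 0 h and all WT libraries on the other side of theirs. For Pol II these were 27 of 3997 tested distal regions at 1 h (0.676%, against 0.514% of all tested regions) and 41 of 4101 at 18 h (1.00% against 0.737%), and for H3K27ac 29 of 4406 (0.658% against 0.780%) and 38 of 4453 (0.853% against 0.782%). These shares are near those over all regions, and the difference between genotypes was not tested. The 4 that follow are those among the named regions. Pol II at chr15:62320710-62322727, in the Pvt1 noncoding gene downstream of Myc, changed at 1 h by 0.387 in KO and by −0.304 in WT (log2(tags + 10)), with 22.5 to 24.7 tags at 0 h and 30.9 to 38.3 at 1 h in KO and 31 to 38.1 and 20.7 to 30.3 in WT. Pol II at chr4:95190197-95198528 near Jun changed at 18 h by −0.105 in KO and by 0.245 in WT. H3K27ac at chr2:167798954-167807107 near Cebpb changed at 1 h by −0.675 in KO and by 0.532 in WT, with KO replicate 1 at 215 tags and replicates 2 and 3 at 140 and 149. H3K27ac at chr13:5302213-5303930 near Klf6 changed at 18 h by 0.535 in KO and by −0.616 in WT, with KO replicate 1 at 31.2 tags and the other KO libraries at 8.93 and 8.47.

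The input libraries, which enter no comparison, had signal in this set: 4112 regions overlapped a region called in at least 1 of the 6 input libraries. Input regions cover 9.98% of the genome's length.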

How the results depend on the processing

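Of 256 tests of named regions, 3313 repeats under alternatives gave 3122 calls of the same direction and side of the threshold, 188 that lost the threshold and 3 reversals. The reversals were −0.0432 for Pol II in KO against WT at 18 h at chr1:171664341-171666806 and −0.393 for H3K27ac in KO at 18 h at chr16:77631280-77669606, both with regions merged over all 18 libraries, and −0.185 for H3K27ac in KO against WT at 1 h at chr14:65342212-65348274 without KO replicates 2 and 3 at 1 h and replicate 1 at 18 h. Of the 153 alternative counts, 119 stayed within 1.5 times the reported count. The others follow, and apart from the fewer regions left without input overlap the cause was not tested.

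With a pseudocount of 30, the LPS comparisons in KO gave 1314 (1 h) and 1183 (18 h) Pol II calls, the comparisons of KO with WT gave 8, 35 and 41 at 0, 1 and 18 h, and H3K27ac calls 647 in KO at 1 h and 151 and 44 in KO against WT at 1 and 18 h. With a pseudocount of 1, Pol II calls in KO against WT numbered 118, 510 and 373. With input regions left out, 403 distal regions remained, with 180, 194, 7, 11 and 11 Pol II calls and 96, 188, 6, 46 and 8 H3K27ac calls. Centring gave 109 Pol II calls in KO against WT at 1 h, and counting all distal regions gave 64 at 0 h. Distance from any annotated gene in place of protein-coding genes left 2339 regions. Without KO replicate 1 at 1 and 18 h, H3K27ac calls in KO against WT at 1 h numbered 830, and without KO replicates 2 and 3 at 1 h and replicate 1 at 18 h, which was chosen after seeing the data and leaves 1 KO library at 1 h, 56. Leaving out each replicate number in turn gave 16 to 44, 57 to 880 and 47 to 93 H3K27ac calls in KO against WT at 0, 1 and 18 h. At 1 h the call count was 880 without replicate 1, 59 without replicate 2 and 57 without replicate 3. At 0 h it was 16 without replicate 2 and 16 without replicate 3, and at 18 h 58 and 47. For Pol II the ranges were 2501 to 2554 (1 h) and 2286 to 2345 (18 h) for LPS in KO, and 46 to 50, 187 to 251 and 163 to 181 in KO against WT.

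The replicate numbers did not pair the libraries: the median correlation of same-numbered deviations lay between −0.0268 and 0.0109. With the replicate block the Pol II counts were 2530, 2297, 42, 197 and 157, and the H3K27ac counts 1053, 1950, 29, 364 and 112. Depth sets which weak regions are called, and the KO input at 18 h had few regions.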

Other observations

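When the same conditions were applied to the KO libraries in place of WT, 4754 regions met them, and 4068 of these (85.6%) overlapped a region of the WT set, while 4088 of the 4515 WT-defined regions (90.5%) overlapped a KO-defined one.

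The strongest distal regions found at a single WT time were also read in KO. Of those at 1 h only, chr12:119098957-119116098 downstream of Itgb8, an integrin subunit gene, held 890, 894 and 859 Pol II tags in WT and 914, 901 and 857 in KO at 1 h. In contrast, chr11:11544444-11549411 near Spata48 held 377, 381.5 and 398 in WT and 223.5, 186 and 184 in KO, with no test, since WT at 1 h chose these regions. The Cxcl5-side region, chr5:90698903-90706463, near a neutrophil-attracting chemokine, was listed at 0 at 0 and 18 h in both genotypes and held 393 to 459 tags in WT and 487 to 544 in KO at 1 h.

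The Pvt1 gene held a series of distal regions. Those at chr15:62037166-62044429 and chr15:62050874-62062523 fell in KO at 1 h, by 1.86 and 2.22 on the log2 scale, whereas chr15:62249723-62268648 was not called at 1 h, with 328, 292 and 387 tags before and 272, 298 and 357 after, and fell to 76.4 to 78.6 at 18 h.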
